A study of Homo sapiens with 6 samples.

Results

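The Notch receptors NOTCH1, NOTCH2, NOTCH3 and NOTCH4, the ligands JAG1, JAG2 and DLL1, the target genes HES1 and HEY1, and NUMB were followed in RNA sequencing of the human adrenocortical carcinoma line H295R. These 10 genes were taken by name from the 57341 named genes of the count table, and 9 of them, all but HEY1, passed the filter on low counts and were among the 16710 genes tested. The 6 libraries comprised 3 replicates labelled H295R, the parental line, and 3 labelled as its Ptch1 positive subpopulation, which the study names H295R-PM-Ptc+, a single population sorted from that line by flow cytometry for the Hedgehog receptor Patched at the plasma membrane and then amplified in culture. Both groups were grown in the same medium with no drug, and the comparison addresses how the sorted cells differ from the line they came from. Nothing in the labels says that the replicates were separate cultures, so the p-values measure the spread between these libraries, which may be technical.

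Library depth was 23264403 to 25813247 counted fragments. The libraries marked by code 1801, replicate 1 of both groups, stood apart from the others on the second principal component, which held 27.6% of the variance, while the first, with 45.7%, separated the groups. PTCH1, which encodes the sorted receptor, went against the group names: its level was 18.5, 22.0 and 23.4 CPM (counts scaled to TMM library sizes) in the libraries labelled H295R and 9.70, 13.1 and 13.8 CPM in those labelled H295R-PM-Ptc+ (log2 fold change -0.81, standard error (SE) 0.147, edgeR adjusted p = 0.0207). The groups did not overlap, and the call was lost without replicate 2 or 3 labelled H295R (edgeR adjusted p = 0.0799 and 0.0921) or replicate 2 labelled H295R-PM-Ptc+ (0.0618). The study's own normalised values carry these same 6 columns under the exchanged group names, under which every direction given here would be the reverse. PTCH1 would then be higher in the group sorted for its protein. The counts alone do not settle which names are right. Groups are therefore given as labelled, and every direction holds for the labels, with the groups named H295R-labelled and PM-Ptc+-labelled. Of 10 adrenocortical markers, 9 exceeded 3 counts in at least 1 library, the exception being CYP11B1, the gene of the 11-beta-hydroxylase. Their summed level was 1730 to 2080 CPM in the H295R-labelled libraries and 2290 to 2550 CPM in those labelled H295R-PM-Ptc+, a gap carried by SCARB1, the HDL receptor gene (762 to 851 and 1220 to 1310 CPM). Without SCARB1 the sums overlapped, at 965 to 1240 and 1040 to 1320 CPM, and of 9 tested markers 2 were called, SCARB1 and CYP21A2, the gene of the 21-hydroxylase.

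Notch receptors are single-pass proteins that bind Delta and Jagged ligands on a neighbouring cell. Ligand binding exposes the receptor to ADAM proteases and then to gamma-secretase, and the freed intracellular part enters the nucleus, where it joins the DNA-binding protein RBPJ and Mastermind coactivators to turn on genes of the HES and HEY repressor families. NUMB is an endocytic adaptor that opposes the pathway in dividing cells, and JAG1 is the ligand best known from adrenocortical carcinoma.

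Among the members, NOTCH4 was lower in the PM-Ptc+-labelled libraries and was the 1 of 9 tested members with an adjusted p under 0.05 (edgeR's quasi-likelihood test, Benjamini-Hochberg over all genes tested). Of all tested genes, 3.73% were called in this comparison, 404 higher and 220 lower. The remaining receptors, the ligands, HES1 and NUMB did not pass the test. In a fit with the replicate number as a block, NOTCH2, JAG1 and DLL1 were called as well, beside 22.5% of all tested genes. The median log2 fold change of the 9 members was 0.11, with 6 positive and 3 negative values, beside a median of 0.00 over all tested genes. DLL1 and NOTCH4 were also the 2 of 9 tested members whose groups did not overlap in CPM, which held for 23.5% of all tested genes. An exact two-sided permutation test of 3 libraries against 3 cannot go below 0.1, and both genes gave that value.

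**Figure D1:**
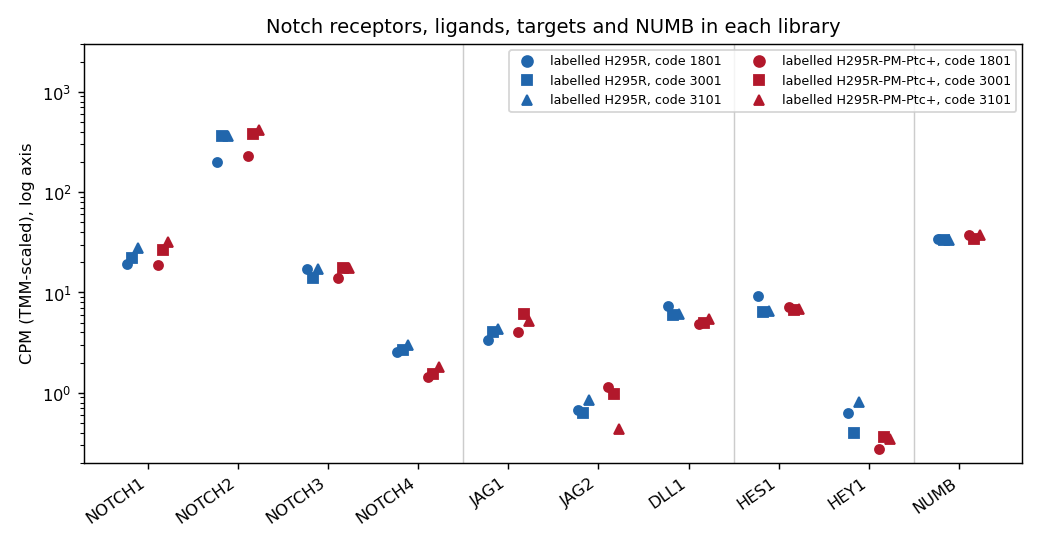
Level of the 10 members in each of the 6 libraries, in CPM on a logarithmic axis; blue symbols are the H295R-labelled libraries, red those labelled H295R-PM-Ptc+, and the symbol shape gives the code that same-numbered replicates share. NOTCH4 lies between 2.55 and 2.99 CPM in blue and between 1.45 and 1.81 CPM in red, and NOTCH2 is lowest in the code 1801 library of each group.

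NOTCH4, a receptor best known from vascular endothelium, lies on chromosome 6 from 32194843 to 32224067 on the minus strand (GRCh38, as in the count table). It had 61, 68 and 74 counts in the H295R-labelled libraries, or 2.55, 2.68 and 2.99 CPM, and 37, 38 and 42 counts in those labelled H295R-PM-Ptc+, or 1.45, 1.53 and 1.81 CPM. All 3 values of one group lay above all 3 of the other, and the same-numbered pairs differed by -0.79, -0.78 and -0.70 on the log2 scale. The group means were 2.74 ± 0.227 and 1.60 ± 0.193 CPM (SD, n = 3 each; log2 fold change -0.78, SE 0.174, edgeR adjusted p = 0.0453). The call was close to the threshold and was lost without any 1 of 5 libraries, namely replicates 2 and 3 labelled H295R (edgeR adjusted p = 0.123 and 0.163) and replicates 1, 2 and 3 labelled H295R-PM-Ptc+ (0.117, 0.166 and 0.0929), while over all alternatives the adjusted p ran from 0.00477 to 0.166 and the log2 fold change from -0.89 to -0.72. Endothelial markers were at or near 0 and none of the list of 8 passed the filter: CLDN5 and TIE1 were at 0 in every library, and the list summed to 0.551 to 0.753 CPM in the H295R-labelled libraries and to 0.822 to 1.08 CPM in those labelled H295R-PM-Ptc+. TEK carried that gap, with 2, 4 and 2 counts in the first group and 6, 11 and 11 in the second, and the part of endothelial cells in the NOTCH4 values was not tested. In these bulk libraries, fewer cells expressing a gene and less RNA per cell cannot be told apart. The gene GPSM3 shares 98 exonic bases with NOTCH4 on the same strand, and it had 2 to 8 counts per library.

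NOTCH1, NOTCH2 and NOTCH3, the remaining receptors, did not pass the test, and the groups overlapped for each. NOTCH2 (chromosome 1, 119911553 to 120069626, minus strand) was at 201, 361 and 363 CPM in the H295R-labelled libraries and at 227, 381 and 414 CPM in those labelled H295R-PM-Ptc+. Its lowest value in each group was that of replicate 1, so that the SD, 92.9 and 99.6 CPM, was large beside the difference between the means of 308 and 340 CPM (log2 fold change 0.14, SE 0.261, edgeR adjusted p = 0.849). Within pairs of the same number the difference was small and of one sign, 0.18, 0.08 and 0.19 on the log2 scale. A shared sign in all pairs held for 52.6% of all tested genes. With the replicate number as a block NOTCH2 was called higher in the PM-Ptc+-labelled libraries (0.15, SE 0.043, edgeR adjusted p = 0.0219), beside 22.5% of all tested genes called. NOTCH2NL, a partial copy of the 5′ part of NOTCH2, had 0 to 6 counts per library, and how reads from the shared part were split cannot be seen from the counts.

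NOTCH1 (chromosome 9, 136494444 to 136545862, minus strand) was at 19.3, 22.3 and 27.5 CPM in the H295R-labelled libraries and at 18.7, 26.7 and 31.8 CPM in those labelled H295R-PM-Ptc+ (log2 fold change 0.16, SE 0.193, edgeR adjusted p = 0.757). As for NOTCH2, replicate 1 was the lowest of each group. NOTCH3 (chromosome 19, 15159038 to 15200981, minus strand), a receptor known from mural cells, was at 17.2, 14.0 and 17.1 CPM and at 13.8, 17.7 and 17.7 CPM in the same order. Its pairs differed in sign, at -0.32, 0.34 and 0.05 on the log2 scale, and the fold change was 0.03 (SE 0.13, edgeR adjusted p = 0.95).

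Per length, NOTCH2 made up most of the receptor RNA. Levels between genes were compared as FPKM, the CPM divided by the exon length in kilobases. NOTCH2 held 74.7% to 84.2% of the summed FPKM of the 4 receptors over the 6 libraries, against 8.86% to 12.2% for NOTCH1 and 5.84% to 11.5% for NOTCH3. The share of NOTCH4 was 1.64%, 1.08% and 1.16% in the H295R-labelled libraries and 0.872%, 0.572% and 0.623% in those labelled H295R-PM-Ptc+, and these ranges did not overlap. The receptor sum was 16.0, 25.5 and 26.5 FPKM in the first group and 17.0, 27.4 and 29.9 FPKM in the second, so the lowest sum of each group was again that of replicate 1.

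**Figure D2:**
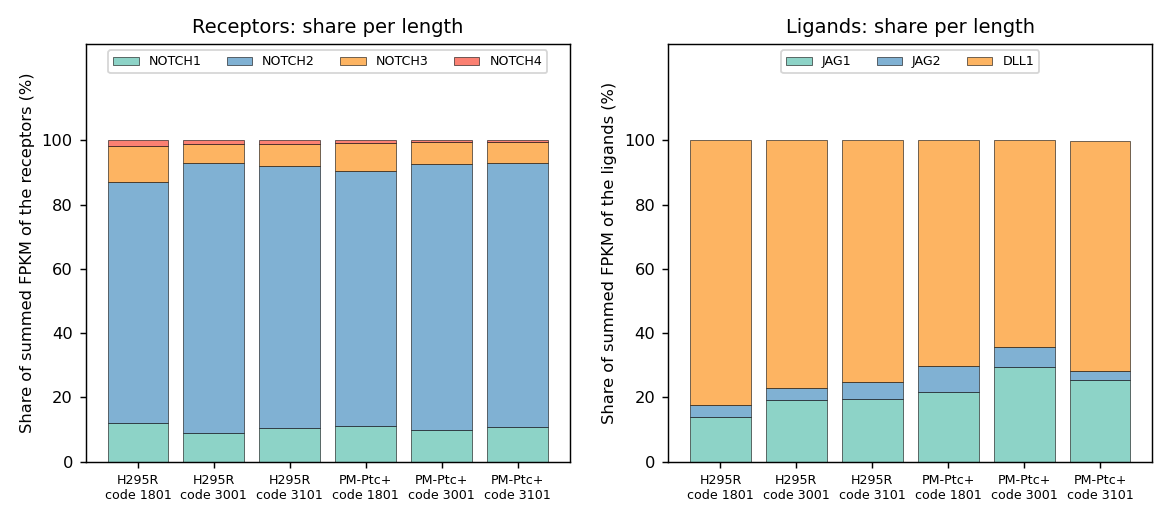
Share of each receptor (left) and of each ligand (right) in the summed FPKM of its class, in percent, 1 bar per library; PM-Ptc+ marks the PM-Ptc+-labelled libraries. NOTCH2 fills 74.7% to 84.2% of the receptor bars, and DLL1 fills 75.2% to 82.4% of the ligand bars labelled H295R and 64.4% to 71.7% of those labelled H295R-PM-Ptc+.

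The member ligands DLL1, JAG1 and JAG2 did not pass the test between groups. The DLL1 groups did not overlap, as for 23.5% of all tested genes, with every library labelled H295R-PM-Ptc+ the lower. DLL1 (chromosome 6, 170282206 to 170290473, minus strand), a Delta ligand that activates the receptors on adjacent cells, had 177, 153 and 151 counts in the H295R-labelled libraries, or 7.41, 6.02 and 6.11 CPM, and 124, 124 and 125 counts in those labelled H295R-PM-Ptc+, or 4.85, 4.99 and 5.40 CPM. The means were 6.51 ± 0.776 and 5.08 ± 0.286 CPM (SD, n = 3 each; log2 fold change -0.36, SE 0.134, edgeR adjusted p = 0.209). With the replicate number as a block the adjusted p was 0.0491, just under the threshold, and without both code 1801 libraries it was 0.328 with a log2 fold change of -0.23.

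JAG1 (chromosome 20, 10637684 to 10674107, minus strand) had 80, 102 and 106 counts in the H295R-labelled libraries, or 3.35, 4.02 and 4.29 CPM, and 103, 152 and 119 counts in those labelled H295R-PM-Ptc+, or 4.03, 6.11 and 5.14 CPM. The groups overlapped. All 3 pairs differed in one direction, as did those of 52.6% of all tested genes. Each library labelled H295R-PM-Ptc+ was above its same-numbered partner, by 0.26, 0.60 and 0.26 on the log2 scale. The log2 fold change was 0.39 (SE 0.183, edgeR adjusted p = 0.324), and with the replicate block JAG1 was called higher in the PM-Ptc+-labelled libraries, at an adjusted p of 0.0492. In fits without the block that left out libraries, its log2 fold change ran from 0.24 (without replicate 2 labelled H295R-PM-Ptc+, edgeR adjusted p = 0.707) to 0.53 (without replicate 1 of that label, 0.167). JAG2 (chromosome 14, 105140981 to 105168824, minus strand), its closest relative, had 10 to 29 counts per library and no direction: the pairs differed by 0.70, 0.56 and -0.86 (log2 fold change 0.25, SE 0.352, edgeR adjusted p = 0.795).

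DLL1 was the leading ligand of the 3 per length in every library. It held 82.4%, 76.9% and 75.2% of their summed FPKM in the H295R-labelled libraries and 70.2%, 64.4% and 71.7% in those labelled H295R-PM-Ptc+. The JAG1 share was 13.9%, 19.1% and 19.6% in the first group and 21.7%, 29.4% and 25.4% in the second. Neither share overlapped between the groups. The ligand sum was 2.83, 2.47 and 2.56 FPKM in the first group and 2.18, 2.44 and 2.37 FPKM in the second, and these did not overlap either, although the nearest libraries, at 2.47 and 2.44 FPKM, were close. This held for the 3 member ligands alone. DLL3, a Delta family gene outside the members, was at 1.54 ± 0.132 and 1.81 ± 0.255 FPKM (SD, n = 3 each; log2 fold change 0.24, SE 0.153, edgeR adjusted p = 0.486), a level close to that of DLL1. With DLL3 and DLL4 included, the sums overlapped, at 4.41, 3.98 and 4.36 FPKM against 4.30, 4.36 and 4.04 FPKM. The JAG1 shares then overlapped as well, while those of DLL1, at 44.1% to 52.9% and 35.5% to 42.1%, did not.

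The direct targets gave no call among the members, while their relatives HEY2 and HEYL were higher in the PM-Ptc+-labelled libraries. HES and HEY genes encode basic helix-loop-helix repressors. Their promoters are shown because RBPJ reaches such genes through sites with the core TGGGAA, and the NOTCH4 promoter is shown for the member that was called. Each run is the 250 bases before the RefSeq start (GRCh38.p14), in the direction of transcription, with every copy of this core on either strand in capitals: HES1 from chr3:194135898-194136147 on the plus strand, HEY2 from chr6:125749382-125749631 on the plus strand, HEYL from chr1:39639644-39639893 on the minus strand and NOTCH4 from chr6:32224068-32224317 on the minus strand.
HES1: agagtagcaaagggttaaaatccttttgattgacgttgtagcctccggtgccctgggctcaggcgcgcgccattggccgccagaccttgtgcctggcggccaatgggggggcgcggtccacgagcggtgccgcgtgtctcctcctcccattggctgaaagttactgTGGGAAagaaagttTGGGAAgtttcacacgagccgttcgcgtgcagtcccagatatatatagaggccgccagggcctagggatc
HEY2: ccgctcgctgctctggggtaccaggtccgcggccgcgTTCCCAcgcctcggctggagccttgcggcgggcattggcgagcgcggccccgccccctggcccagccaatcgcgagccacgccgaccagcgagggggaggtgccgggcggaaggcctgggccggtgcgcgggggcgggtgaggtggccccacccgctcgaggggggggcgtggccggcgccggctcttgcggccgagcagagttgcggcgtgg
HEYL: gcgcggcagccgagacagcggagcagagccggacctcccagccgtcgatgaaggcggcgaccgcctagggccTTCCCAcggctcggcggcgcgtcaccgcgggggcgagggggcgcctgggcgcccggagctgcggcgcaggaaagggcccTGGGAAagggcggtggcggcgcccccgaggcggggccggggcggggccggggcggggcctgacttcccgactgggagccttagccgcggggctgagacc
NOTCH4: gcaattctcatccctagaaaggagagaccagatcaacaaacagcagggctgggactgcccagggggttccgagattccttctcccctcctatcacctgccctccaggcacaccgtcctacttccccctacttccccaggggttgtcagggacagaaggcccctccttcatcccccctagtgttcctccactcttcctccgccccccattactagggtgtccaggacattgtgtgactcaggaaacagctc

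The HES1 window held 2 matches, beginning 84 and 70 bases before the start and in the same orientation. HEYL also held 2, beginning at 178 and 99 bases before the start and in opposite orientations, and HEY2 held 1, beginning at 213 bases before the start. The windows of NOTCH1, NOTCH2, NOTCH3, NOTCH4, JAG1, JAG2 and NUMB held none. For comparison, 20.8% of the 35116 promoters in the same RefSeq table held at least 1 match in a window of this length and 2.9% held at least 2. The E-box CACGTG, its own reverse complement and a site for basic helix-loop-helix proteins, was in none of these 10 windows and in 6.34% of all promoters. DLL1 and HEY1 were not matched in that table.

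HES1 (chromosome 3, 194136145 to 194138732, plus strand) was at 9.21, 6.46 and 6.55 CPM in the H295R-labelled libraries and at 7.16, 6.64 and 6.78 CPM in those labelled H295R-PM-Ptc+. Replicate 1 labelled H295R lay above the other 5 libraries, which spanned 6.46 to 7.16 CPM. The means were 7.41 ± 1.56 and 6.86 ± 0.27 CPM (log2 fold change -0.11, SE 0.158, edgeR adjusted p = 0.798), and without that library the log2 fold change was 0.08.

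HEY1 (chromosome 8, minus strand) was barely expressed, with 15, 10 and 20 counts in the H295R-labelled libraries and 7, 9 and 8 counts in those labelled H295R-PM-Ptc+. Its means were 0.61 ± 0.208 and 0.327 ± 0.0469 CPM, and the groups did not overlap, by 1 count. It did not pass the filter, and in the fit without one its log2 fold change was -0.89 (SE 0.402, edgeR adjusted p = 0.338).

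HEY2 was at 21.7, 20.0 and 19.5 CPM in the H295R-labelled libraries and at 30.8, 28.4 and 29.2 CPM in those labelled H295R-PM-Ptc+, and the groups did not overlap (log2 fold change 0.53, SE 0.0816, edgeR adjusted p = 0.00925). HEYL was at 1.80, 1.30 and 1.62 CPM in the first group and at 3.76, 2.69 and 3.50 CPM in the second, again without overlap (log2 fold change 1.08, SE 0.201, edgeR adjusted p = 0.0228). Per length HEY2, at 9.10 FPKM over the 6 libraries, was above HES1, at 3.46 FPKM, and HEYL and HEY1 were lower, at 0.668 and 0.145 FPKM. Without any 1 library the log2 fold changes stayed between 0.49 and 0.57 for HEY2 and between 0.95 and 1.21 for HEYL, while some calls were lost. HEY2 lost its call without replicate 3 labelled H295R (edgeR adjusted p = 0.0668) or replicate 3 labelled H295R-PM-Ptc+ (0.0544), and HEYL without replicate 2 or 3 labelled H295R (0.094 and 0.0921) or replicate 1 or 3 labelled H295R-PM-Ptc+ (0.0679 and 0.0959). Among 7 fibroblast and mural cell markers, 2 were tested and RGS5, known from mural cells, was called higher with this group name, at 28.0 to 40.0 CPM in the H295R-labelled libraries and 53.6 to 76.1 CPM in those labelled H295R-PM-Ptc+. It carried the sum of the list (37.3 to 48.2 and 62.8 to 86.2 CPM), and without it the sums overlapped, at 8.19 to 9.38 and 9.27 to 11.2 CPM. Of the list 6 genes exceeded 3 counts in at least 1 library, PDGFRA had 12, 12 and 7 counts in the H295R-labelled libraries and 4, 6 and 7 in the others, and LUM was at 0 in all. The part of such cells in the HEY2 and HEYL values was not tested. Immune markers summed to 0.85 to 1.42 and 1.73 to 2.03 CPM in these groups, with PTPRC and CD68 at 0, and chromaffin cell markers to 0.787 to 0.809 and 1.04 to 1.53 CPM, with DBH and PNMT at 0.

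**Figure D3:**
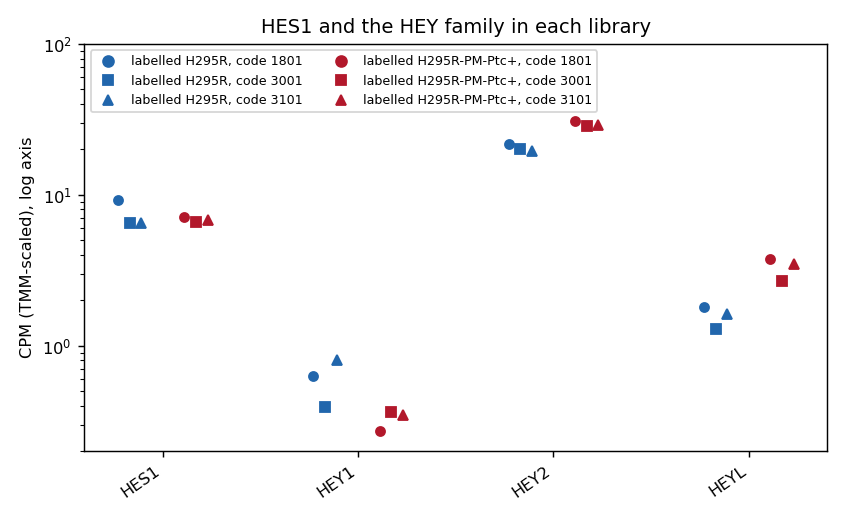
HES1, HEY1, HEY2 and HEYL in each of the 6 libraries, in CPM on a logarithmic axis, with colours for the labelled group and shapes for the code. HEY2 and HEYL are higher in all red than in all blue libraries, HEY1 is lower in all red than in all blue libraries, and HES1 overlaps between the groups.

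NUMB (chromosome 14, 73275107 to 73463642, minus strand) was at 34.4, 33.7 and 33.1 CPM in the H295R-labelled libraries and at 37.7, 34.1 and 37.7 CPM in those labelled H295R-PM-Ptc+. Relative to its level it varied least of all members between libraries, from 33.1 to 37.7 CPM. Each pair differed in the same direction, by 0.13, 0.02 and 0.18 on the log2 scale, a shared direction that held for 52.6% of all tested genes. The NUMB groups overlapped (log2 fold change 0.11, SE 0.0751, edgeR adjusted p = 0.507). The antisense genes that overlap exons of NUMB and JAG1 had at most 2 counts in any library, and the gene that overlaps JAG2 on the same strand had 0.

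Over the 6 libraries NOTCH2 had the highest level per length of the 10 members, at a mean of 19.3 FPKM (12.0 to 24.6), and its range did not meet that of HES1, the next, at 3.46 FPKM (3.13 to 4.47). HES1 was above NUMB, at 3.26 FPKM, in only 3 of 6 libraries, so these neighbours were not separated. NUMB was above NOTCH1, at 2.47 FPKM, in 6 of 6 libraries, although their ranges over libraries overlapped. NOTCH1 was above DLL1, at 1.83 FPKM, in 5 of 6 libraries, and DLL1 above NOTCH3, at 1.73 FPKM, in 4 of 6. Below them the ranges of NOTCH3, JAG1 at 0.526 FPKM and NOTCH4 at 0.223 FPKM were separate from one another. HEY1, at 0.145 FPKM, and JAG2, at 0.122 FPKM, were the lowest, and HEY1 was the higher of the 2 in 4 of 6 libraries.

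Same-numbered libraries of the groups shared a code, and the members were also described within these pairs. All 3 pairs differed in one direction for 5 of 9 tested members, which held for 52.6% of all tested genes: NOTCH2, JAG1 and NUMB were higher and NOTCH4 and DLL1 lower in the PM-Ptc+-labelled libraries. With the replicate number as a block, edgeR called 4 of 9 members (NOTCH2 and JAG1 higher, NOTCH4 and DLL1 lower), and 22.5% of all tested genes. For NOTCH4 the blocked adjusted p was 0.00477. Without both code 1801 libraries 1 of 9 members, NOTCH4, was called (edgeR adjusted p = 0.0397), and 12.0% of all tested genes.

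Among replicates, NOTCH2, NOTCH1 and JAG1 were lower in the code 1801 libraries of both groups. In the fit with group and code, code 1801 against the mean of the other codes gave a log2 difference of -0.83 for NOTCH2 (SE 0.0473, edgeR adjusted p = 2.18e-08), -0.50 for NOTCH1 (SE 0.0778, edgeR adjusted p = 0.000148) and -0.40 for JAG1 (SE 0.146, edgeR adjusted p = 0.0473). These 3 of 9 tested members were called, beside 30.8% of all tested genes. JAG1 was not called in this contrast by DESeq2 (adjusted p = 0.246), which called the other 2. For NOTCH2 the difference between codes was larger than that between groups, whereas for NOTCH4 it was -0.17 (SE 0.189, edgeR adjusted p = 0.538) beside a group difference of -0.78. HES1 was not called, at 0.30 (edgeR adjusted p = 0.0696).

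Gene length moved with this contrast. The median log2 difference of code 1801 against the others was 0.13 in the shortest of 4 equal length classes of the tested genes annotated on a single contig, 0.07 and -0.01 in the next classes, and -0.14 in the longest, while the medians between groups were -0.06, 0.00, 0.01 and 0.03. NOTCH2, with 16804 exonic bases, NOTCH1, with 9880, and JAG1, with 8534, are all in the longest class, which begins at 6764 bases. NUMB, with 10760, and NOTCH3, with 9394, are in it too and were not called, at 0.06 and -0.10 (edgeR adjusted p = 0.547 and 0.534). NOTCH4, with 9748 bases on its primary chromosome but annotated on further contigs, was at -0.17. Among the 2769 tested single-contig genes of at least 8000 bases the median was -0.17, and 67 of them lay below NOTCH2 and 355 below NOTCH1. The part of length in the NOTCH2, NOTCH1 and JAG1 values was not tested.

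**Figure D4:**
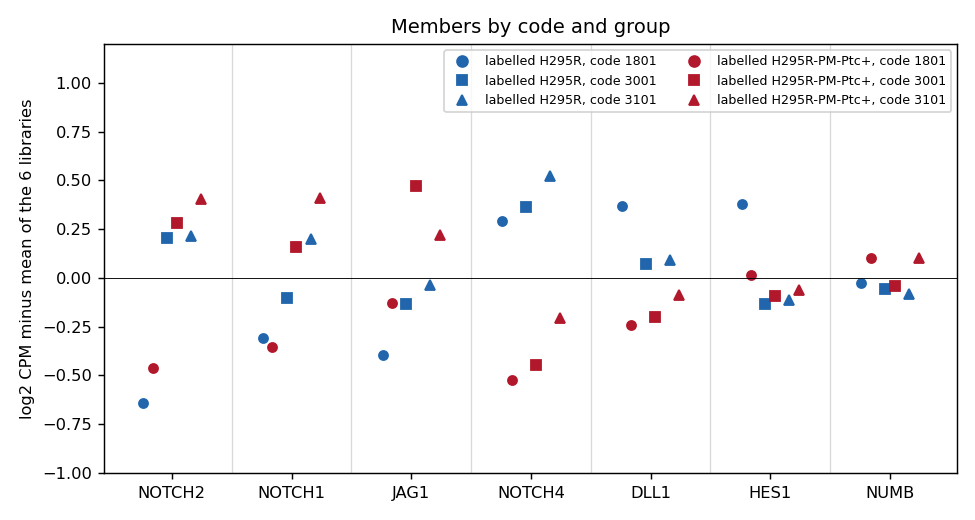
Difference of each library's log2 CPM from the mean of the 6 libraries, for 7 members, with colours for the labelled group and shapes for the code. For NOTCH2 the circles (code 1801) of both groups lie below all other symbols, and for NOTCH4 the red symbols of all codes lie below the blue.

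The other genes of the pathway were taken from a list of 60 by role, and 52 of them were tested. In the comparison of the groups 5 of 52 were called, all higher in the PM-Ptc+-labelled libraries: the ligand-like genes DLK1 and MFAP2, the targets HEY2 and HEYL, and the ubiquitin ligase gene NEURL1B. Of all tested genes, 3.73% were called, 404 higher and 220 lower. The median log2 fold change of the 52 was 0.02, with 28 positive and 24 negative. DLK1, a membrane protein related to the Delta ligands and known as a marker of immature adrenocortical cells, was at 719, 637 and 750 CPM in the H295R-labelled libraries and at 1250, 1110 and 1260 CPM in those labelled H295R-PM-Ptc+ (log2 fold change 0.78, SE 0.0933, edgeR adjusted p = 0.00245). At 180 FPKM over the 6 libraries it was the most abundant of the listed ligand and ligand-like genes per length, and it kept its call without any 1 library (adjusted p at most 0.0179 over all alternatives). MFAP2, a microfibril protein that can bind Notch, had 11 to 25 counts in the H295R-labelled libraries and 43 to 64 in those labelled H295R-PM-Ptc+ (log2 fold change 1.52, SE 0.295, edgeR adjusted p = 0.0269). NEURL1B, which promotes the uptake of ligands, was at 123 ± 6.3 and 159 ± 12.2 CPM (SD, n = 3 each; log2 fold change 0.38, SE 0.0834, edgeR adjusted p = 0.0447). MFAP2 lost its call without replicate 2 labelled H295R (edgeR adjusted p = 0.0802) or any 1 library labelled H295R-PM-Ptc+ (0.0735, 0.0544 and 0.0898), and NEURL1B without replicate 2 or 3 labelled H295R (0.152 and 0.141) or replicate 2 or 3 labelled H295R-PM-Ptc+ (0.141 and 0.205).

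By role, and beside the same 3.73% of all tested genes, 2 of 6 tested ligand and ligand-like genes outside the members and 2 of 4 tested genes in the group of other HES and HEY genes and NRARP were called, as was 1 of 11 ubiquitin ligases and endocytic adaptors. None was called among 9 receptor-processing genes, 4 glycosyltransferases, 8 genes of the nuclear complex and 10 corepressors in edgeR's test. DESeq2, also without a block, called the glycosyltransferase gene POGLUT1 lower in the PM-Ptc+-labelled libraries (log2 fold change -0.30, DESeq2 adjusted p = 0.042). The machinery was present in all libraries: the most abundant gene per length was the gamma-secretase subunit APH1A among the processing genes (74.3 FPKM), the O-fucosyltransferase POFUT1 among the glycosyltransferases (22.9 FPKM), NEURL1B among the ligases and adaptors (22.0 FPKM), SNW1 in the nuclear complex (20.4 FPKM) and TLE1 among the corepressors (64.8 FPKM). HES2, HES5 and MFNG were at 0 counts in all 6 libraries, and MFAP5, HES3, HES4, HES7 and NEURL1, at 0 to 14 counts, were also not tested.

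With the replicate block 16 of 52 pathway genes were called, 13 higher and 3 lower in the PM-Ptc+-labelled libraries, beside 22.5% of all tested genes, 2028 higher and 1730 lower. The 3 lower genes were RBPJ, the DNA-binding partner of the receptors' intracellular part (log2 fold change -0.25, SE 0.0432, edgeR adjusted p = 0.000505), POGLUT1, which glucosylates the receptors (-0.30, adjusted p = 0.000889), and the corepressor TLE4 (-0.25, adjusted p = 0.00292). RBPJ was at 137, 164 and 161 CPM in the H295R-labelled libraries and at 112, 140 and 135 CPM in those labelled H295R-PM-Ptc+. Each of the latter was lower than its partner, a shared direction that held for 52.6% of all tested genes, and the groups overlapped. Beside the 5 genes already called, the higher ones included NUMBL, the relative of NUMB (0.35, edgeR adjusted p = 0.00167), DTX3L, PSEN2, ADAM10, FBXW7, MIB2 and EP300, with log2 fold changes of 0.15 to 0.29. Without the block, leaving out 1 library moved several of these: without replicate 1 labelled H295R the log2 fold change was 0.02 for EP300, 0.03 for ADAM10, 0.10 for FBXW7 and 0.49 for MIB2, and that of MIB2 was 0.14 without replicate 2 of that label. Without both code 1801 libraries ADAM10, FBXW7 and EP300 were not called (edgeR adjusted p = 0.273, 0.16 and 0.146). Both proteases of the list that cut the receptor after ligand binding, ADAM10 and ADAM17, were tested, and ADAM10 (0.15, edgeR adjusted p = 0.034) was the one called with the block.

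**Figure D5:**
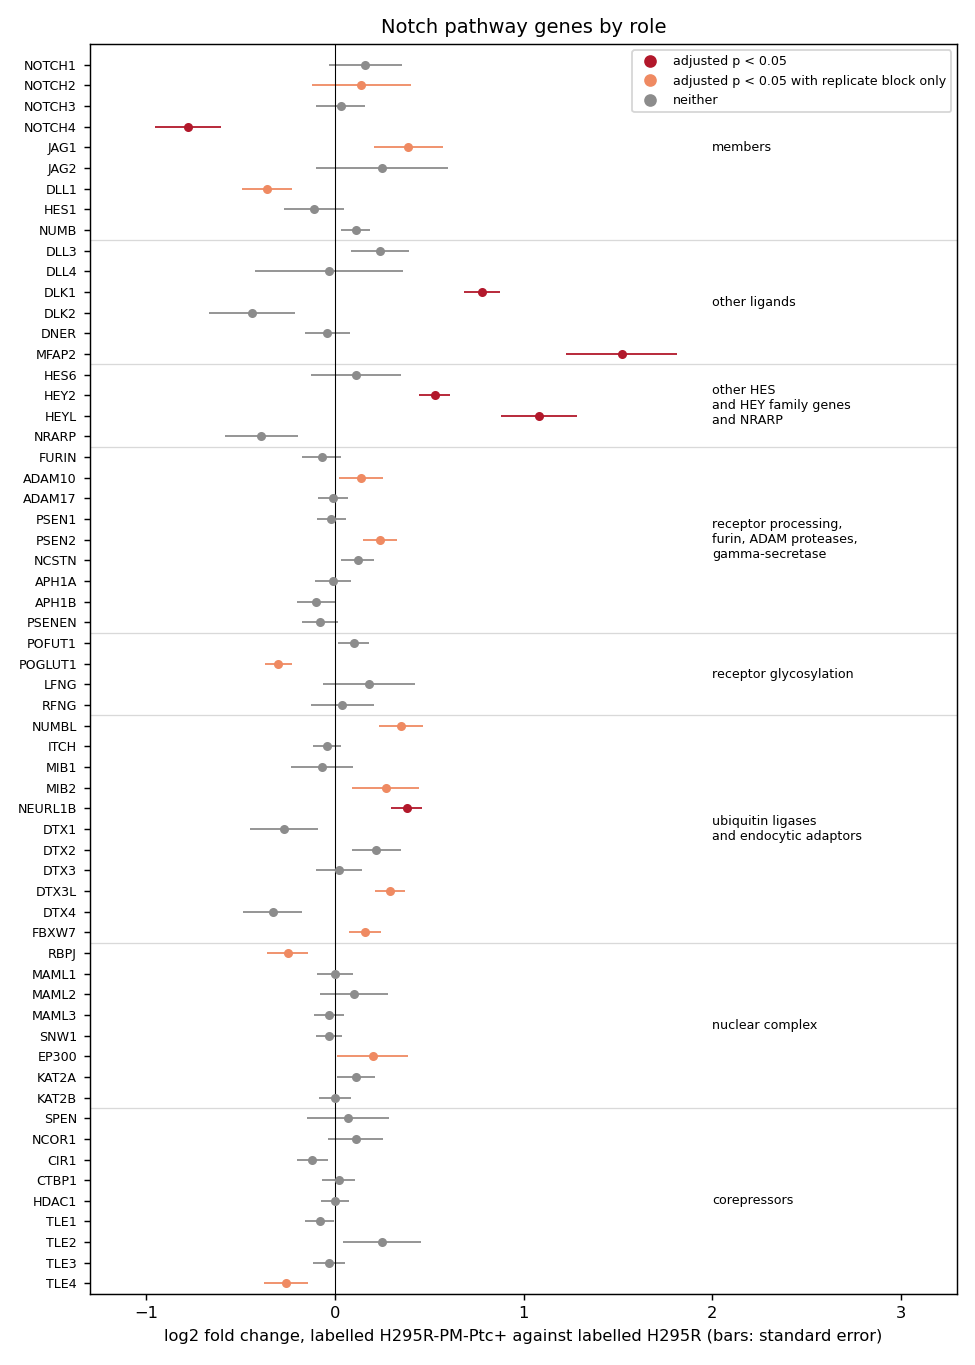
Log2 fold change with its standard error for 60 of the 61 tested members and pathway genes, grouped by role, in the PM-Ptc+-labelled libraries against those labelled H295R. Dark red points had an adjusted p under 0.05 without the block, orange points with the replicate block alone; NOTCH4 is the dark red point on the negative side.

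For NOTCH4, JAG1 and DLL1, the tested genes with the most similar pattern over the 6 libraries were found by the root mean square difference of log2 CPM centred on its mean. Nearest to NOTCH4 were WSCD1 (0.0619) and C14orf132 (0.0698). PCDHGB2 (0.0554) and SLC30A1 (0.0664) were nearest to JAG1, and SIAH2-AS1 (0.0416) and HTRA2 (0.0451) to DLL1.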

How the data were processed

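RNA of 3 replicates labelled H295R and 3 labelled H295R-PM-Ptc+ was sequenced in paired reads. The authors aligned the reads with STAR (2.4.0a) to hg38, counted fragments per gene name on an Ensembl annotation with featureCounts (Subread 1.5.0-p3 in the submitters' processing notes, an older release in the published methods), primary alignments of multiply mapped reads included, and deposited raw counts without normalization or filter. The published methods name a stranded mRNA kit and the labels a total RNA kit. The 1 unnamed spike-in row, at 0 counts in all libraries, was left out.

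Genes were filtered with filterByExpr, normalized with TMM and compared by the quasi-likelihood F-test of edgeR 4.0.16 under R 4.3.3 (two-sided, no term but group), with Benjamini-Hochberg adjustment over the 16710 genes tested and a threshold of 0.05. SEs were derived from the same fit, as the absolute log2 fold change divided by the square root of the F statistic. FPKM used exon lengths on the primary chromosome, since the lengths in the table for NOTCH4 and DLL1 also count alternate contigs. Single values were compared with an exact permutation test (scipy 1.17.1). Alternatives were DESeq2 1.42.0, limma-voom (limma 3.58.1), RLE size factors, no filter, at least 10 counts in every library, the replicate block, and leaving out each library or both libraries of code 1801. The tests were tried on simulated data. The replicate numbers pair the libraries: after the group means were subtracted, log2 CPM across genes correlated at 0.497, 0.307 and 0.228 in the same-numbered pairs 1, 2 and 3, against -0.352 to 0.150 for other pairs.

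The members and lists were chosen with earlier results of these data known. Named in the text are all members, each pathway gene called with or without the block, the most abundant gene per role, PTCH1, and the 2 genes most similar in pattern to each called member, except for a few genes that are not reported here.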

Additional observations from a re-analysis of the deposited data

How the results depend on the processing

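NOTCH4 was called under DESeq2 (adjusted p = 0.0442), limma-voom (0.0491), RLE size factors (0.045), no filter (0.022) and at least 10 counts in every library (0.0466). The number of genes called was 624, and it was 911 with DESeq2, 1111 with no filter and 3758 with the replicate block. DESeq2 called 6 other pathway genes. The block gave 4 members instead of 1 and 16 other pathway genes instead of 5. Leaving out 1 library or both of code 1801 gave 219 to 2013 genes, 0 to 1 members and 1 to 13 other pathway genes. Where 1 library is left out, its group keeps 2 and the spread is shared between groups. The log2 fold changes of members near 0 changed sign in some of these fits: they ran from -0.03 to 0.34 for NOTCH1, from -0.09 to 0.36 for NOTCH2, from -0.07 to 0.19 for NOTCH3, from -0.06 to 0.54 for JAG2 and from -0.20 to 0.08 for HES1, and none of these 5 was called in a fit with libraries left out. The cause was not tested. The block added the calls of NOTCH2, JAG1 and DLL1, kept that of NOTCH4, and changed no call of NOTCH1, NOTCH3, JAG2, HES1 and NUMB. No member changed sign under the other tools, scalings and filters or the block. RLE against TMM moved the median of all genes by -0.0017 on the log2 scale. Depth limits HEY1 and JAG2, with at most 29 counts in any library.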
